A study of Vitis vinifera with 156 samples.

Results

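These results concern grapevine buds that were kept warm, at a constant 22 °C, while they were dormant, and ask how their RNA levels changed with day. The members were all libraries of the constant 22 °C treatment at days 7, 13, 20, 34, 41 and 55, which made 18 libraries, 3 for each day, in 6 of the 52 groups of the series (11.5% of its libraries). They form a block of days 7, 13 and 20, called early here, and a block of days 34, 41 and 55, called late. The blocks are kept apart because the library names divide the series into a First and a Second set, and the early block lies wholly in the First set and the late block wholly in the Second. Day 26 is left out of every fit, because its 3 libraries lie in both sets.

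All buds were endodormant buds of Vitis vinifera cultivar Cabernet Sauvignon on cuttings, and the 22 °C buds had the same temperature before and after day 26. In the rest of the study, cuttings stood at a constant 2, 4, 7 or 11 °C, or were moved at day 26 from 2, 7 or 11 °C to a regime that fluctuated around 7 °C. Buds sampled at day 0, before any treatment, are in the First set, as are the constant 2, 7 and 11 °C arms, whereas the 4 °C arm is in the Second. The labels number the replicates of a day but do not say whether a number stands for a separate plant, cutting or pool, so p-values measure only the spread between these libraries. The measure is the number of reads from the 3′ ends of transcripts in a whole bud, in which fewer cells of a type and less RNA per cell cannot be told apart.

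In endodormancy a grapevine bud does not grow even where the surroundings allow growth. Exposure to chill over weeks releases this block, and low temperatures above and below freezing also drive the gain of cold hardiness. Buds held at a warm constant temperature receive no chill, so in a study of cold acclimation they show what passes with time in the absence of cold.

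The deposited count table lists 42413 genes by line and gives no gene identifiers. The sentences below therefore name a gene only by its line number, counted from the first line after the header, and describe the rest by their values. Gene families, pathways, cell type markers and sequences were not analysed here. The tissue label could for the same reason not be checked against marker genes.

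Total counts ran from 1295880 to 2876524 in the early block and from 93075 to 3226898 in the late block. In the late block 2 libraries held under 1000000 counts, day 55 replicate 1 with 93075 and day 55 replicate 3 with 333331. In these, 3 counts amount to 32.2 and 9.0 counts per 1000000 counts of a library (CPM), which limits what can be seen at day 55. In both blocks the day ran in step with the position on the plate that the library names give, so day and plate position cannot be told apart. Of all genes, 24234 had a count in at least 1 of the 18 libraries.

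The early libraries were alike across days, whereas the late libraries were alike within day 34 and not within days 41 and 55. Likeness was measured as Pearson's r of log2 CPM across 11586 genes, which share libraries and depth and are not independent. Among the 9 early libraries, r between pairs ran from 0.833 to 0.952 with a median of 0.920, and the median of pairs of the same day was 0.914. The 3 libraries of day 34 resembled each other at 0.950 to 0.957. At day 41, replicates 1 and 3 resembled each other at 0.918, but replicate 2 reached only 0.632 with replicate 1 and 0.572 with replicate 3. At day 55, all 3 pairs lay between 0.664 and 0.708. The shallow day 55 replicate 1 reached only 0.594 to 0.693 with any other late library.

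**Figure D1:**
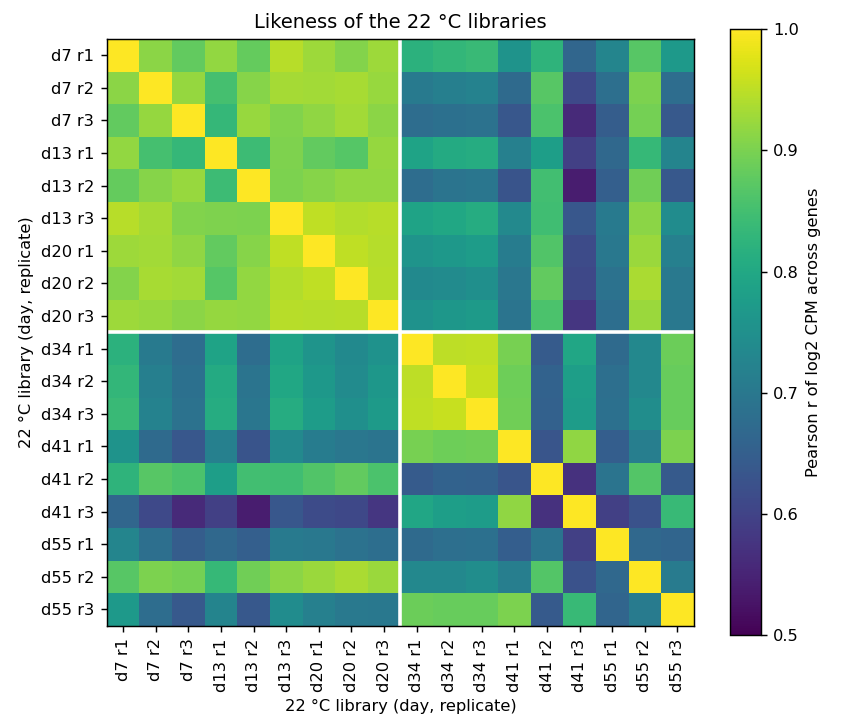
Pearson's r of log2 CPM across 11586 genes between each pair of the 18 libraries at 22 °C, labelled by day (d) and replicate (r); white lines part the early block (upper left) from the late block. The early block is even, at 0.833 to 0.952, whereas day 41 replicate 2, day 55 replicate 2 and the shallow day 55 replicate 1 stand apart from the other late libraries.

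Day 41 replicate 2 and day 55 replicate 2 were more like the early buds than the other late libraries at 22 °C were. With the mean of the early libraries, each early library correlated at 0.907 to 0.969, its own values left out of the mean. The day 34 libraries correlated with that mean at 0.774, 0.784 and 0.791. The day 41 libraries gave 0.721, 0.884 and 0.624 for replicates 1, 2 and 3, and the day 55 libraries gave 0.711, 0.937 and 0.729. Both replicate 2 libraries were thus above all other late libraries at 22 °C, and day 55 replicate 2 lay within the early range. Whether their day labels are right was not tested, and the late results rest on those labels as given. Thinning each library of at least 1000000 counts to 1000000 left these values near 0.890 for day 41 replicate 2 and 0.935 for day 55 replicate 2, against 0.726 and 0.626 for the other day 41 libraries. A wide spread also occurred in other arms at these days, in libraries of at least 1000000 counts. Those of constant 4 °C ran from 0.691 to 0.858 (median 0.760) and those of constant 11 °C from 0.720 to 0.931 (median 0.922). Day 41 replicate 2 correlated more highly, at 0.901, with the mean of the early 11 °C libraries, where day 55 replicate 2 gave 0.891. With the mean of day 0 the 2 libraries gave 0.847 and 0.858, again above all other late libraries at 22 °C.

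The libraries also differed in how far a few genes took up the counts. The 10 highest genes of a library held 24.4% to 43.5% of the counts in the early block. At day 41 they held 18.4% in replicate 1, 37.3% in replicate 2 and 12.3% in replicate 3. At day 55 they held 38.2%, 28.7% and 23.9% in replicates 1, 2 and 3, so there the share was not highest in the library most like the early ones. An exact permutation test over the libraries of a block did not detect a difference of this share between days, with two-sided p of 0.611 in the early block and 0.507 in the late block, where the smallest p the design allows is 0.00357. The same held for the number of genes detected, with p of 0.904 and 0.164, and for the total count, with p of 0.182 and 0.186. The lowest Benjamini-Hochberg adjusted p over these 6 tests was 0.371.

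**Figure D2:**
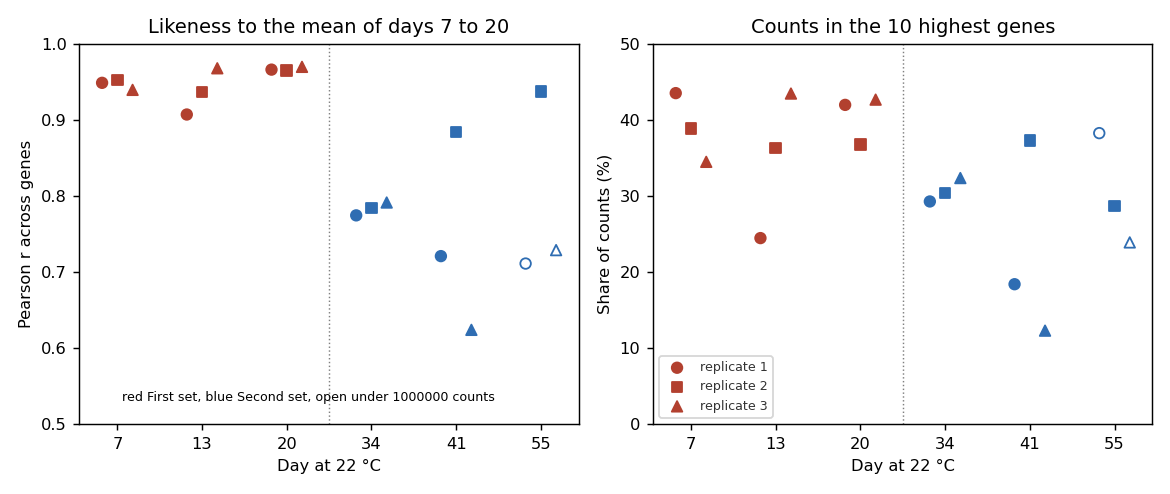
Each 22 °C library by day: left, Pearson's r with the mean of the early libraries (axis from 0.5 to 1); right, the share of counts in the 10 highest genes (%). Symbols give the replicate, red the First and blue the Second library set, and open symbols libraries under 1000000 counts; replicate 2 of days 41 and 55 lies at 0.884 and 0.937 on the left, above the other late libraries.

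The spread within single days was correspondingly uneven. At day 41, 22.2% of the genes expressed there differed at least 10-fold between the highest and the lowest library, after 1 CPM had been added. This was rank 2 among the 40 groups of the whole series whose libraries all held at least 1000000 counts. At day 34 the share was 0.0694% and at day 20 it was 0.0144%, the ranks 39 and 40. Over the genes tested, the median SD within a day was 0.51 on the log2 scale in the early block and 0.89 in the late block. Principal component 1 took up 35.5% of the variance in the early block, with 8.80% of it between days, and 45.4% in the late block, with 25.5% of it between days. Most of the variance along this component therefore lay between libraries of the same day in either block. Of the first 4 components only component 3 went mostly with day, and it is singled out here for that. It took up 12.1% of the variance in the early block, with 95.4% of it between days, and 15.6% in the late block, with 84.2% between days. Components 2 and 4 had 26.5% and 10.4% between days in the early block, and 8.70% and 32.4% in the late block.

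A small set of genes changed with day in the early block, nearly all of them downward. Over days 7 to 20, 11 of 9426 genes (0.117%) passed edgeR's quasi-likelihood test of a linear trend at a Benjamini-Hochberg adjusted p under 0.05. Of these, 1 gene (0.0106%) rose and 10 genes (0.106%) fell. DESeq2 called 35 genes, 7 rising and 28 falling, and all 11 were among them. The typical gene had a standard error of 0.43 on the log2 scale for its change over the 13 days, and 507 genes (5.38%) had an unadjusted p under 0.05.

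The gene that rose, gene 41502, held 24.1, 22.7 and 22.0 CPM in the 3 libraries of day 7. It held 71.1, 63.3 and 71.7 CPM at day 13. It held 297.5, 223.6 and 167.6 CPM at day 20. Each day lay wholly above the one before it, and the day means were 22.9 ± 1.04, 68.7 ± 4.70 and 229.6 ± 65.2 CPM (SD, n = 3 each). The fitted log2 change over the block was 3.38 ± 0.34 (SE), with an adjusted p of 0.000422 by edgeR's quasi-likelihood test, the lowest of the block. It was called with each single library left out in turn, but had an adjusted p of 0.0761 without replicate 2 and 0.140 when both blocks were fitted together.

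Gene 41502 was lower at day 7 than at day 0, and its choice by a rise from day 7 favours low levels there. At day 0 it held 120.3, 124.6 and 92.1 CPM, above all 3 libraries of day 7 at 22 °C, as in 14.6% of all genes tested. At day 13, with 63.3 to 71.7 CPM, it was still wholly below day 0. At day 7 in the cold it held 99.2 to 147.0 CPM at 2 °C, 120.1 to 142.6 at 7 °C and 60.2 to 500.3 at 11 °C, where 2 of the 3 libraries held under 1000000 counts, so that the 22 °C libraries lay below all of these First-set libraries. At day 20 the 22 °C range overlapped with 165.2 to 219.5 CPM at 2 °C and 146.0 to 253.8 CPM at 11 °C, and lay below 327.8 to 355.5 CPM at 7 °C. The difference of its slope from that at 11 °C was 3.21 ± 0.77 on the log2 scale with an adjusted p of 0.282, that from 2 °C was 2.61 ± 0.52 with an adjusted p of 0.0672, and that from 7 °C was 2.18 ± 0.48 with an adjusted p of 0.120, all by edgeR's quasi-likelihood test.

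In later 22 °C libraries, none of which entered the early trend, gene 41502 stayed above its day 7 level. Its choice by a rise from day 7 favours this, since the day 7 libraries are shared, and no share over all genes was computed. For the Second-set libraries the comparison also runs across the library sets. At day 26 gene 41502 held 284.3, 262.5 and 204.8 CPM. At day 34 it held 120.1, 151.3 and 198.4 CPM, and at day 41 it held 150.4, 224.7 and 30.1 CPM. At day 55 it held 505.0, 356.1 and 279.0 CPM, of which the first rests on 47 counts. All 12 libraries were above day 7, with day 41 replicate 3 the nearest to it. The late trend of 1.38 ± 0.69 over 21 days had an adjusted p of 0.866 by edgeR's quasi-likelihood test.

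The largest fall among the called genes was that of gene 10840. It held 25.2, 69.8 and 86.7 CPM at day 7. It held 9.65, 38.6 and 6.29 CPM at day 13, and 1.84, 4.62 and 3.13 CPM at day 20. Days 7 and 20 did not overlap, day 13 reached into the range of day 7, and replicate 2 was the highest at days 13 and 20. The fitted log2 change was -4.21 ± 0.67 (SE), with an adjusted p of 0.0361 by edgeR's quasi-likelihood test. The call was lost in 9 of 18 alternative fits, all of which left the change negative.

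Gene 10840 was higher before treatment than in any 22 °C library. At day 0 it held 117.9, 309.2 and 346.8 CPM, all above day 7. At day 20 it held 33.7 to 245.1 CPM at 2 °C, 9.81 to 45.9 CPM at 7 °C and 5.75 to 7.88 CPM at 11 °C. The 22 °C libraries were below every library of these arms at that day, which the choice of the gene by its fall favours. By edgeR's quasi-likelihood test its slope differed from that at 11 °C by -0.38 ± 2.83 on the log2 scale, with an adjusted p of 0.990. The difference from 2 °C was -4.56 ± 1.13 with an adjusted p of 0.171, and that from 7 °C was -1.69 ± 0.92 with 0.538, by the same test. In the late block gene 10840 held 0.985, 0.809 and 0 CPM at day 34, and 0, 13.4 and 0.310 CPM at day 41, with replicate 2 the high one. At day 26 it held 0, 12.9 and 13.1 CPM, and at day 55 it held 32.2, 2.33 and 3.00 CPM, the first from 3 counts. Levels after day 20 were thus not all below those of day 20. It was too low in the late block for its trend to be tested.

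**Figure D3:**
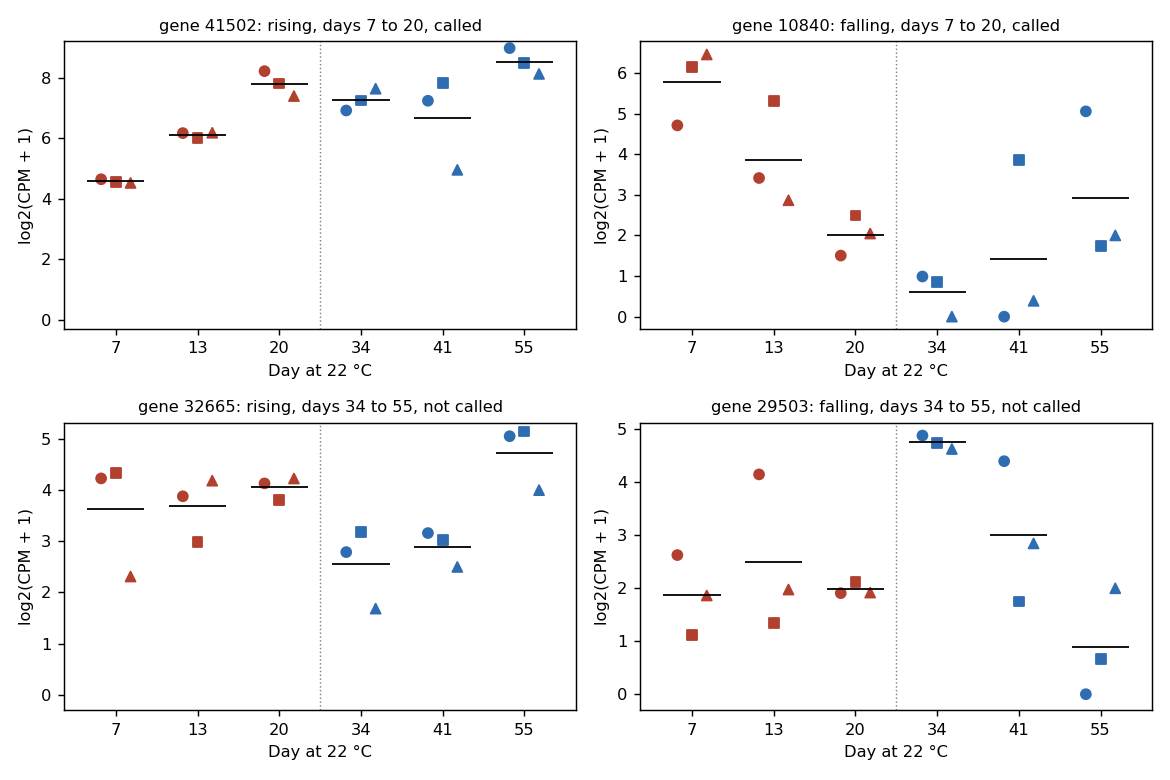
log2(CPM + 1) of the 4 named genes in each 22 °C library by day (not to scale on the day axis), with symbols for replicates 1 (circle), 2 (square) and 3 (triangle), red for the First and blue for the Second set, and bars for day means. Gene 41502 climbs and gene 10840 falls through days 7, 13 and 20; genes 32665 and 29503 of the late block were not called.

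The 10 falling genes had log2 changes of -1.95 to -4.21 over the 13 days, with a median change of -2.84 and adjusted p from 0.00175 to 0.0477 by edgeR's quasi-likelihood test. Their day 7 means ran from 30.7 to 5484 CPM and their day 20 means from 2.12 to 827 CPM, so the set holds both abundant and scarce transcripts. In 6 of the 10, every day 0 library was above every day 7 library, which was so for 14.6% of all genes tested. In 7 of the 10, both First-set libraries of day 26 were below every day 7 library, against 3.65% of all genes tested. The choice of genes by their fall from day 7 favours libraries below day 7 and works against libraries above it, since the day 7 libraries are shared. In 9 of the 10, every day 34 library was below every day 7 library, against 18.7% of genes, a comparison that runs across the library sets. At day 41 this was so in 2 of the 10, against 7.21% of genes, and at day 55 in 3 of the 10, against 4.55%. The day 41 mean was above the day 7 mean in 4 of the 10, against 65.6% of all genes tested. The day 55 mean was above it in 2, against 63.9%.

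**Figure D4:**
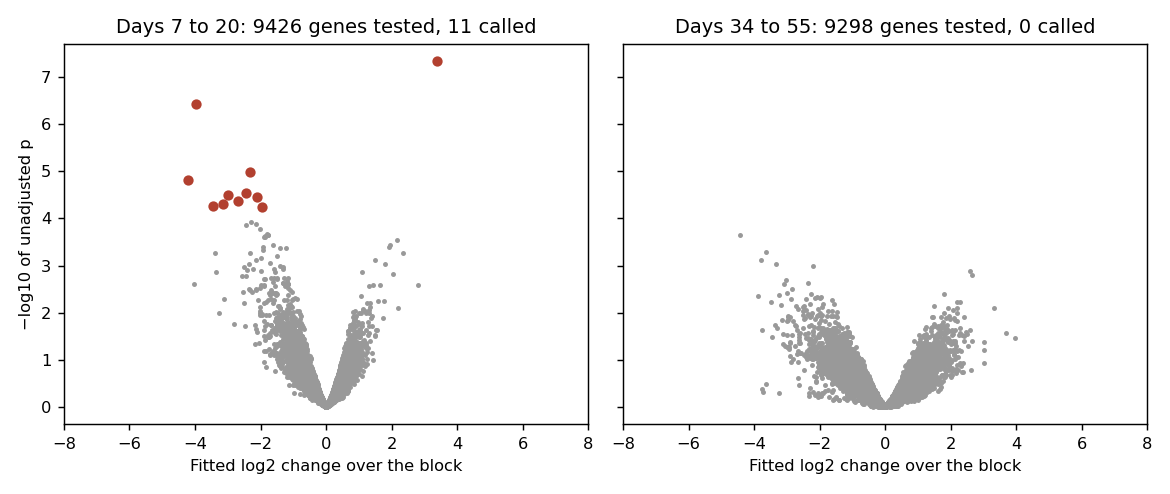
Fitted log2 change over the block (x axis) against −log10 of the unadjusted p (y axis) for each gene, days 7 to 20 on the left and days 34 to 55 on the right; red points were called at an adjusted p under 0.05. There are 11 called genes of 9426 on the left, 10 of them falling, and 0 of 9298 on the right.

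The early count rested on few libraries. It was 21 without day 13 replicate 1, 7 without day 13 replicate 2, 6 without day 7 replicate 1, and 2 without each of the other 6 single libraries. Without replicate 2 or without replicate 3 at all days it was 1. Between neighbouring days no gene was called by edgeR's quasi-likelihood test (0%), with 447 genes at an unadjusted p under 0.05 from day 7 to day 13 and 340 from day 13 to day 20, while DESeq2 called 2 and 1. A difference among the 3 days in any pattern was called for 2 of 10031 genes (0.0199%), with 424 at an unadjusted p under 0.05, and DESeq2 called 35. A departure of day 13 from the line between days 7 and 20 was called for none (0%), with 363 at an unadjusted p under 0.05, and DESeq2 too called none.

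To see whether the early trend differed from that of buds in the cold on the same days, the slopes were tested against each other. The 22 °C libraries are shared by these comparisons. Against 11 °C, none of 11041 genes was called (0%) by edgeR's quasi-likelihood test, with 945 at an unadjusted p under 0.05, a lowest adjusted p of 0.0668 and 13 genes called by DESeq2. Against 2 °C, 3 of 10674 genes (0.0281%) were called, 1 with the more positive and 2 with the more negative slope at 22 °C, and DESeq2 called 55. Against 7 °C, 1 of 10954 genes (0.00913%) was called, with the more negative slope at 22 °C, and DESeq2 called 33. The gene called against 7 °C was among the 10 that fell at 22 °C, and none of those called against 2 °C was among the 11. In the fit with 11 °C, all 10 falling genes had the more negative slope at 22 °C and none passed. Their choice by a fall in the same 22 °C libraries favours this sign, and 61.3% of all genes tested had it too, with a median difference of -0.27. The 2 and 7 °C comparisons were added after the data had been seen.

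Each cold arm was also fitted alone over days 7 to 20. By edgeR's quasi-likelihood test, 23 of 7726 genes were called at 2 °C and 0 of 10208 at 4 °C. At 7 °C 0 of 9127 were called, and at 11 °C 0 of 9629. At 2, 4, 7 and 11 °C, 10.7%, 1.68%, 14.3% and 10.2% of the genes tested had an unadjusted p under 0.05. Of the 10 genes that fell at 22 °C, 8 were tested at 2 °C and 1 was called, 8 at 7 °C and 0 called, and 10 at 11 °C and 0 called. The change was negative in 4 of these at 2 °C, 7 at 7 °C and 7 at 11 °C. Among all genes tested it was negative in 50.3%, 49.3% and 35.5%. At 2 °C, 4 of the 9 libraries held under 1000000 counts, and at 11 °C 2 did.

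Genes that drift with time in every cold arm mostly had the same sign of change in the warm buds of the early block. There were 231 genes with a called trend over days 7 to 69 in each of the 4 constant cold arms by edgeR's quasi-likelihood test, 72 of them rising in all 4 and the rest, except 1 of mixed direction, falling. No 22 °C library had a part in that choice, but the lists were made after the data had been seen. In the early block at 22 °C, 61 of the 70 rising genes tested had a positive fitted change, with a median of 0.29 on the log2 scale. Of the falling genes tested, 93.8% had a negative change, with a median of -0.77. Over all genes tested, 46.7% had a positive change and the median was -0.03.

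The separation of days was also visible library by library. In 67 of the falling genes (46.2% of those tested), all 3 libraries of day 20 lay below all 3 of day 7, against 6.41% of all genes tested. In 22 of the 70 rising genes (31.4%) they lay above, against 4.71%. Of the 11 genes called at 22 °C, 7 were on these lists, gene 41502 among the rising and 6 genes, with gene 10840, among the falling. The lists hold 2.28% of all genes tested. In the cold over the same days, which were part of the choice, the rising list had a median change of 0.52 at 2 °C and 0.40 at 7 °C, above that at 22 °C, and of 0.24 at 11 °C. The falling list had a median change of -0.57 at 2 °C, -0.62 at 7 °C and -0.18 at 11 °C, where the median of all genes tested was 0.26 at 11 °C and within 0.01 of 0 at 2 and 7 °C.

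A score was formed in each library as the mean log2 CPM of the rising list minus that of the falling list. It has no test, since the lists were made after the data had been seen. At day 0 the score averaged -0.21 and ran from -0.72 to 0.17. At 22 °C it averaged 1.10 at day 7 (0.88 to 1.44), 1.78 at day 13 (1.55 to 1.91) and 2.35 at day 20 (2.17 to 2.55). No early library of a later day overlapped with one of an earlier day. At day 20 the cold libraries averaged 0.02 at 2 °C, -0.02 at 4 °C, 0.35 at 7 °C and 0.61 at 11 °C, and the highest of them, at 0.95, was below every 22 °C library of that day. At day 7 the 22 °C range overlapped with that of 11 °C, but the 11 °C libraries at 1.53 and 1.23 held only 57968 and 27485 counts. The other 11 °C library of day 7, with 2658700 counts, scored -0.23. A 4 °C library of day 7 with 4772169 counts scored 0.93, inside the 22 °C range.

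**Figure D5:**
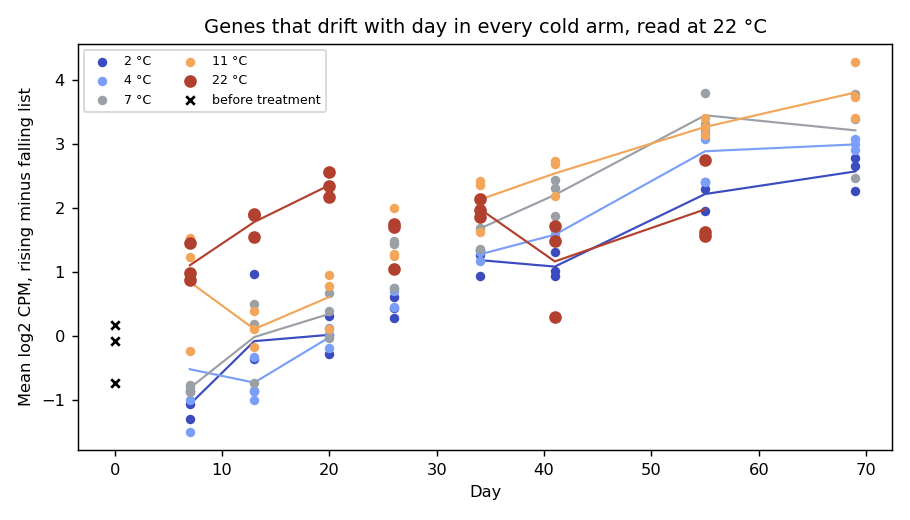
Mean log2 CPM of 72 genes that rise minus that of the genes that fall with day in every cold arm, in each library by day; lines join day means within days 7 to 20 and within days 34 to 55 or 69. The 22 °C libraries (large red points) reach 2.17 to 2.55 at day 20, above the cold libraries of that day, and lie between 0.29 and 2.74 in the late block.

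In the late block the lists lay closer to the rest of the genes at 22 °C. Of 69 rising genes tested, 44 had a positive change, with a median of 0.17, and of 130 falling genes 69 had a negative change, with a median of -0.05, where 46.1% of all genes tested had a positive change and their median was -0.08. The score averaged 1.50 at day 26, 1.99 at day 34, 1.16 at day 41 and 1.98 at day 55. At day 41 the libraries scored 1.48, 1.72 and 0.29, replicate 3 being the low one. At day 55 they scored 1.56, 2.74 and 1.63, replicate 2 being the high one. Replicates 1 and 3 of day 55 held only 93075 and 333331 counts, and replicate 2 held 1713088. In the cold arms, whose libraries defined the lists, the day 55 means were 2.21 at 2 °C, 2.88 at 4 °C, 3.44 at 7 °C and 3.26 at 11 °C.

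No gene was called for a steady trend over days 34, 41 and 55. Of 9298 genes tested, 0 (0%) passed edgeR's quasi-likelihood test, with a lowest adjusted p of 0.866 and 366 genes (3.94%) at an unadjusted p under 0.05. DESeq2 and every other alternative fit, 20 in all, also called 0. The median standard error of the change over the 21 days was 0.67 on the log2 scale, against 0.43 over the 13 days of the early block. In the same days, 4 °C in the same library set had 318 called genes, 305 rising and 13 falling, with a median standard error of 0.48, although 2 of its 9 libraries too held under 1000000 counts. The constant 2, 7 and 11 °C arms, in the First set, each had 0 called genes on these days by the same edgeR test, with 569, 1026 and 570 genes at an unadjusted p under 0.05.

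The nearest to a rise in the late block was gene 32665, which was not called. It held 5.91, 8.09 and 2.21 CPM at day 34 and 7.95, 7.09 and 4.65 CPM at day 41. At day 55 it held 32.2, 34.4 and 15 CPM, above all earlier late libraries, but from 3, 59 and 5 counts. All day 55 libraries lay above all day 34 libraries in 9.8% of the genes tested. The log2 change was 2.58 ± 0.62 (SE), with an unadjusted p of 0.00127 and an adjusted p of 0.866 by edgeR's quasi-likelihood test. In the early block it ran from 3.96 to 19.2 CPM.

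The nearest to a fall was gene 29503, also not called. It held 28.6, 25.9 and 23.8 CPM at day 34 and 20.1, 2.36 and 6.20 CPM at day 41. At day 55 it held 0, 0.584 and 3.00 CPM, from 0, 1 and 1 counts, below every library of day 34, as in 11.7% of the genes tested. The log2 change was -4.43 ± 0.85, with an unadjusted p of 0.000224 and an adjusted p of 0.866 by edgeR's quasi-likelihood test. Its level in the early block was low as well, at 1.18 to 16.8 CPM.

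The differences that were called in the late block concerned day 41, and their number depended on the tool and the libraries. Of 10198 genes tested, 11 (0.108%) differed between days 34 and 41 by edgeR's quasi-likelihood test, 8 higher (0.0784%) and 3 lower (0.0294%) at day 41, with 1419 genes at an unadjusted p under 0.05. DESeq2 called 422, with all 11 among them. The 8 higher genes changed by 3.97 to 8.15 on the log2 scale, from day 34 means of 0.184 to 10.99 CPM to day 41 means of 30.4 to 548 CPM. The 3 lower genes changed by -4.12 to -7.74, from 18.8 to 28.9 CPM at day 34 to at most 1.54 CPM at day 41. In all 11 the libraries of the days did not overlap, as in 11.6% of all genes for higher and 11.1% for lower levels at day 41. In all 8 higher genes the day 55 mean lay between those of days 34 and 41, which the choice of genes by these days favours. That mean includes the libraries of 93075 and 333331 counts, and the share over all genes was not computed.

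From day 41 to day 55, 0 genes (0%) passed edgeR's quasi-likelihood test, with 483 at an unadjusted p under 0.05 and 3 called by DESeq2. The departure of day 41 from the line between days 34 and 55 was called for 14 genes (0.137%), 11 above the line and 3 below, with 1255 at an unadjusted p under 0.05, and for 317 by DESeq2. All 11 genes called between days 34 and 41 were among them. A difference among the 3 days in any pattern was called for 2 of 10198 genes (0.0196%) by edgeR's quasi-likelihood test and for 223 by DESeq2, and without day 41 replicate 2 for 1221 by edgeR.

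The size of the day 41 change depended on the library. In all 8 higher genes replicate 3 held the highest level of day 41, in 7 of 8 replicate 2 held the lowest, and the median ratio of replicate 3 to replicate 2 was 4.50. The share of all genes with this order of replicates was not computed. Without day 41 replicate 2, 1002 of 11669 genes (8.59%) were called between days 34 and 41, 845 higher and the rest lower, with a median absolute log2 change of 3.31 and a median standard error of 0.71. These included all 11. Without both that library and day 55 replicate 2, 2083 were called, a setting chosen after the data had been seen. It leaves day 55 with only the libraries of 93075 and 333331 counts. The count was 0 without any single library of day 34, 3 without day 41 replicate 1, 2 without day 41 replicate 3, 2 without day 55 replicate 1 and 25 without day 55 replicate 3.

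The genes called higher without day 41 replicate 2 were read in other libraries, as a description. Of the 845, 449 had enough counts across the series, and their mean log2 CPM is given relative to the mean of the day 34 libraries. The choice of genes puts the day 34 libraries low, which favours positive values in all other libraries. It also puts replicates 1 and 3 of day 41 high, and these stood at 2.00 and 3.28. Day 41 replicate 2 stood at 0.75, day 55 replicate 2 at 0.55 and day 55 replicate 3 at 1.15. The other 22 °C libraries of at least 1000000 counts, outside days 34 and 41 and 12 in number with day 55 replicate 2, stood between -0.03 and 0.80. In the constant cold arms and at day 0, 88 libraries of at least 1000000 counts stood between -0.69 and 1.01.

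Against 4 °C in the same library set and on the same days, the late slope at 22 °C differed for none of 11289 genes (0%) by edgeR's quasi-likelihood test, with 197 at an unadjusted p under 0.05 and 1 gene called by DESeq2. The 318 genes with a trend at 4 °C are thus not shown to behave otherwise at 22 °C.

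The early and the late trend were set beside each other gene by gene. Of 8165 genes tested in both, 56.6% had the same sign of fitted change, and Pearson's r of the changes across genes was 0.19 and Spearman's rho 0.18, given as a description since genes are not independent. There were 16 genes with an unadjusted p under 0.05 in both blocks, 12 of them with the same sign. Of the 10 genes that fell early, 8 were tested late, 3 had a negative change and 0 were called. Tested directly as a difference of the slopes per 10 days, 0 of 11587 genes (0%) passed edgeR's quasi-likelihood test, with 259 at an unadjusted p under 0.05, and DESeq2 called 0. For gene 41502 this difference was -1.99, with an unadjusted p of 0.00104 and an adjusted p of 1.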

How the data were processed

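Per the labels' protocols, bud RNA went into libraries of the QuantSeq 3′ mRNA kit, sequenced on a NextSeq500 at 95 samples per lane with 85-base reads. The authors deposited counts of reads, with a line for each gene and a column for each library; the values are whole and sum to different totals, and no normalization is apparent. The submitters' processing notes name FastQC, STAR and DESeq2 without roles. The genome build, the annotation, the counting tool and the handling of duplicate reads are not given in the sources used here. Floors therefore cover counting error only, and genes with near-identical copies are uncertain. The SD and SE values cover the spread between these libraries. A 3′ kit gives counts that do not grow with transcript length. Lines carry no gene identifiers, and 0 columns were unmapped.

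Tests ran in R 4.3.3 with edgeR 4.0.16 (TMM scaling, filterByExpr given each design, estimateDisp, glmQLFit, glmQLFTest), with Benjamini-Hochberg adjustment over all genes tested and a call at an adjusted p under 0.05. Day was a number in trend fits and a factor in fits of steps, bends and any difference. A trend is the log2 change over its block, and its SE was derived from that change and its F statistic. CPM divides by the total count, and log2 CPM used a prior count of 2. Likeness used genes with at least 5 CPM in at least 20 libraries. Code was tested on simulated data.

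The rule for named genes took, in each block, the rising and the falling gene with the largest change among those called with a mean of at least 10 CPM and day means moving 1 way, and otherwise the lowest unadjusted p. Alternatives were DESeq2 1.42.0, RLE scaling, no filter, days coded 1, 2 and 3, a replicate block, only libraries of at least 1000000 counts, a joint fit of both blocks, and leaving out libraries or replicate numbers. The members and lists were chosen with earlier results of these data known. The likeness, thinning and within-day measures, the cold lists and score, the fits of the cold arms and the fits without day 41 replicate 2 and day 55 replicate 2 together were chosen after the data had been seen. Same-day libraries differed by more than sampling noise, with a chi-square of 2.55 or more per gene, and each counted as 1 replicate.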

Additional observations from a re-analysis of the deposited data

How the results depend on the processing

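The late trend gave 0 called genes in every alternative run, and the difference of the early and late slopes did too. The early trend of 11 genes gave 35 with DESeq2 (11 shared), 1.3e2, to 2 digits, with no filter on low counts (11 shared), 7 with RLE scaling (7 shared) and 0 in the joint fit of both blocks. Any difference among days was called for 35 genes with DESeq2 and 130 with no filter in the early block, against 2, and for 223 with DESeq2, 960 with no filter, 0 with only libraries of at least 1000000 counts and 1425 without day 41 replicate 2 and day 55 replicate 2 in the late block, against 2. From day 7 to day 13, 2 genes were called with DESeq2 and 49 with no filter, and from day 13 to day 20, 1 and 14. The early bend gave 11 with no filter. From day 34 to day 41, DESeq2 called 422 genes, RLE scaling 7, no filter 996, libraries of at least 1000000 counts 0, and the fit without both replicate 2 libraries 2083. From day 41 to day 55 these were 3 with DESeq2, 216 with no filter and 24 without both libraries, and for the late bend 317, 1175, 0 with libraries of at least 1000000 counts, and 1794 without both. The slope difference from 11 °C gave 13 with DESeq2, 110 with no filter and 1 with libraries of at least 1000000 counts, and that from 4 °C gave 1 with DESeq2 and 1 without both libraries. Without the filter, genes with counts in a single library enter the fit. The cause of the other differences was not tested.

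Leaving out single libraries or replicate numbers gave 1 to 21 genes in the early trend, 0 to 7 and 0 to 1221 for any difference in the early and late blocks, 0 to 1084 from day 34 to day 41, 0 to 408 from day 41 to day 55, 0 to 1229 in the late bend, 0 to 2 for the slope difference from 11 °C and 0 to 1 for that from 4 °C. The exact permutation p of the share in the 10 highest genes ran from 0.171 to 0.889 early and from 0.0679 to 0.907 late.

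Same-numbered libraries deviated together in some pairs only, with correlations from -0.326 to 0.488 early (mean 0.0184, 3 of 9 pairs over 0.1) and from -0.161 to 0.565 late (mean 0.0734, 2 of 9), so the numbers are not taken to pair them. With a replicate block the early trend gave 11 genes, 9 of them shared, and any difference gave 5 early and 92 late, the step to day 41 gave 199 and the late bend 229.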
